A study of Schizosaccharomyces pombe with 6 samples.

Results

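Contacts between AseI fragments that lie in the same chromosome end of *Schizosaccharomyces pombe* were examined. An end was taken as the outermost 50 kb of chromosome I or II on the left or the right, and a pair of fragments belongs to it when both midpoints fall inside it. Adjacent fragments, which can be joined without a contact, were left out. Of the 161355 different pairs of non-adjacent nuclear fragments with at least 1 count in the 3 phases, 252 joined fragments of 1 end, and 79, 70 and 187 of them were listed in G1, G2 and M phase. Genome Conformation Capture (GCC) digests cross-linked chromatin with AseI, ligates it in dilute solution and sequences the joined ends. The count of a pair is the raw contact frequency deposited for its fragments. G1 phase cells were strain MY291 (cdc10-129), G2 phase cells MY284 (cdc25-22) and M phase cells MY286 (nuc2-663), all h- with a leu1 mutation, and all arrested by 4 h at 36°C. Each phase had 2 biological replicates, and the table analysed for each phase pools them. No spread between replicates could therefore be computed, and phase, strain and library cannot be told apart.

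Subtelomeres are the stretches next to the telomere repeats at the ends of chromosomes. In fission yeast those of chromosomes I and II are built from blocks copied between ends, with helicase genes of the tlh family, families of short open reading frames, remnants of Tf1 and Tf2 retrotransposons (LTRs) and, further in, genes for transporters and enzymes. They carry heterochromatin and are held near the nuclear envelope.

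All non-adjacent nuclear pairs, the network, summed to 2056860 counts for G1, 2196581 for G2 and 2119634 for M phase. After the cut-off used in the study, a pair was called significant at 3 or more counts. Unless stated otherwise, the study analysed only interactions whose fragments map to a unique position. The counts used here also hold pairs of fragments made wholly of repeated sequence. Pairs called significant here are therefore not the study's set of significant interactions. The ends hold 158 listed fragments, 35 on the left and 46 on the right of chromosome I, 41 on the left and 36 on the right of chromosome II, with a median length of 872 bp. Repeat-free here means that no 50 bp stretch of a fragment is found at another place in the nuclear genome. By this measure 3 of the 35 fragments of the left end of chromosome I were repeat-free, 23 of 46 on its right, 21 of 41 on the left of chromosome II and 21 of 36 on its right. The label was checked against the annotation: RefSeq places tlh1 at the outer end of chromosome I on the left, and fragments with LTRs are annotated in all 4 ends. The right end of chromosome II is the exception in position, because the tables stop at base 4509021 and the reference chromosome is 30783 bp longer. What is called the right end of chromosome II is thus the outermost part of the tables, not of the chromosome.

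Short fragments that separate the partners of several pairs are shown first, because many of the significant pairs step over them. Capitals mark the AseI sites, lower case the fragment between them, and positions are those of the sequence printed, in the reference genome (ASM294v3), on the plus strand.
36 bp fragment in SPAC212.08c, I, 12686 to 12727: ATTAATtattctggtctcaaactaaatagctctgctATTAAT
70 bp fragment, I, 20351 to 20426: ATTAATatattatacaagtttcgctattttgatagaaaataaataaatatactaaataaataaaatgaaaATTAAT
84 bp fragment, I, 25144 to 25233: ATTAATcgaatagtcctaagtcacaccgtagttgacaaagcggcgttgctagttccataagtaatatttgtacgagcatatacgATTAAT
102 bp fragment in ftm1, I, 29841 to 29948: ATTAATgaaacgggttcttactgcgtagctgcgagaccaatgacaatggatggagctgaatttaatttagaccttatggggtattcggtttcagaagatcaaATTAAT
42 bp fragment, II, 36988 to 37035: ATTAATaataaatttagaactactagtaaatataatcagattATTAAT
48 bp fragment, II, 37030 to 37083: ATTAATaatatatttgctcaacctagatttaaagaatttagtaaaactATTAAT
The 84 bp fragment has a copy with 0 differences on the left of chromosome II. The 70 bp fragment has 1 with 0 differences, in the opposite orientation, on the right of chromosome I. The 102 bp fragment occurs in all 4 ends with 0 differences between any of the copies. The 36, 42 and 48 bp fragments had no repeated stretch.

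Between 92.7% and 96.7% of all counts within the ends fell on 4 pairs, and these were the only pairs of an end whose own sequences have a 50 bp stretch in common. The point where the identical stretch begins is shown for both fragments of each pair. Capitals mark the first 60 bases of the longest identical stretch, and the 30 bases before it are in lower case. The fragment of SPAC212.06c is given on the minus strand and all others on the plus strand.
tlh1 fragment, I, 754 to 843: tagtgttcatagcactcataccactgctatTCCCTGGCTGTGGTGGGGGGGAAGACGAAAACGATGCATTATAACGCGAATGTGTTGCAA
SPAC212.06c fragment, I, 18430 to 18519: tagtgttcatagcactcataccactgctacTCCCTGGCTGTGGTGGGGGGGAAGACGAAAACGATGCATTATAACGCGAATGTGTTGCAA
SPAC212.08c fragment, I, 12106 to 12195: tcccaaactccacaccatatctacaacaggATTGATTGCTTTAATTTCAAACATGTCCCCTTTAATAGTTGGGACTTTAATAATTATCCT
SPAC212.12 fragment, I, 15803 to 15892: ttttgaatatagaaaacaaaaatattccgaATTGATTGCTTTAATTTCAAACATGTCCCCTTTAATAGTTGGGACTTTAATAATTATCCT
SPAC212.04c fragment, I, 21322 to 21411: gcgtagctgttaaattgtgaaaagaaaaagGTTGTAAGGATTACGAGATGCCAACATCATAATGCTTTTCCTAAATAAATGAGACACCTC
SPAC212.01c fragment, I, 28473 to 28562: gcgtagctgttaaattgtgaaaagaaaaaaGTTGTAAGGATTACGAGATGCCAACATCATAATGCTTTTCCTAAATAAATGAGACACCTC
SPBPB2B2.07c fragment, II, 4474449 to 4474538: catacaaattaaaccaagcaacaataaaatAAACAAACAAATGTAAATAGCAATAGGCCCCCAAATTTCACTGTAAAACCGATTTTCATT
SPBPB2B2.14c fragment, II, 4492900 to 4492989: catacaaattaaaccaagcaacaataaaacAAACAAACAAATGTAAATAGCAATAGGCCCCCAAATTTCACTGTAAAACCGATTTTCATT
The copies stay alike beyond the capitals: in 3 of the 4 pairs, 29 of the 30 bases before the identical stretch were equal as well. In the pair of SPAC212.08c and SPAC212.12 the copies differed up to that point, with 7 of 30 bases equal. A 50 bp read end that lies inside such a stretch fits both fragments, so the counts of these pairs could not be assigned to 1 copy. How far this set the counts was not tested.

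The pair with the most counts joined the helicase sequences of the left end of chromosome I. One partner (bases 1 to 6472) holds tlh1, which codes for a RecQ type DNA helicase, and the pseudogene SPAC212.10, and the other (16375 to 19318) holds SPAC212.06c, noted as a truncated helicase. With facing ends 9902 bp apart, the pair reached 5867 counts in G1, 4315 in G2 and 6927 in M phase. These were 56.3%, 46.1% and 59.4% of all counts within ends, so the total over the ends was lowest in G2 phase, where this pair was lowest. The longest identical stretch was 271 bp and the copies run in opposite directions.

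The GPI-anchored protein genes SPAC212.08c (11970 to 12687) and SPAC212.12 (15039 to 16374) formed the second pair, with an identical stretch of 310 bp and 1847, 1710 and 1866 counts (G1, G2 and M phase). The third joined SPAC212.04c (20987 to 22670) with SPAC212.01c (28240 to 29842), which belong to the DUF999 family of duplicated telomeric genes and stand beside Tf1-type LTRs. It had 1247, 1350 and 1390 counts and an identical stretch of 520 bp. Per 1000000 network counts, these pairs differed at most 1.15-fold between phases, and the helicase pair up to 1.66-fold.

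On the right of chromosome II the pair with shared sequence joined SPBPB2B2.07c (4473166 to 4476841) with a fragment of gal1, the galactokinase gene, and SPBPB2B2.14c (4489036 to 4493665). It spans 12194 bp, in which the galactose genes gal7 and gal10 lie, and had 1038 (G1), 1289 (G2) and 1089 (M) counts. The identical stretch of 242 bp lies at the SPBPB2B2.07c and SPBPB2B2.14c genes and outside gal1. This pair alone held 94.4%, 96.1% and 95.9% of the counts of that end.

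Copies of the same fragments in different ends were joined by counts of the same order. Over the 4 ends, 93 pairs of fragments share a 50 bp stretch across different ends, of which 92 were listed. Their counts came to 228232 (G1), 232622 (G2) and 228196 (M), with a median of 5470 counts per pair over the phases. The 4 pairs of 1 end held 9999, 8664 and 11272 counts, with a median of 4700. The pairs of 1 end thus lay inside the range set by copies in different ends, which ran from 0 to 46755 counts.

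**Figure D1:**
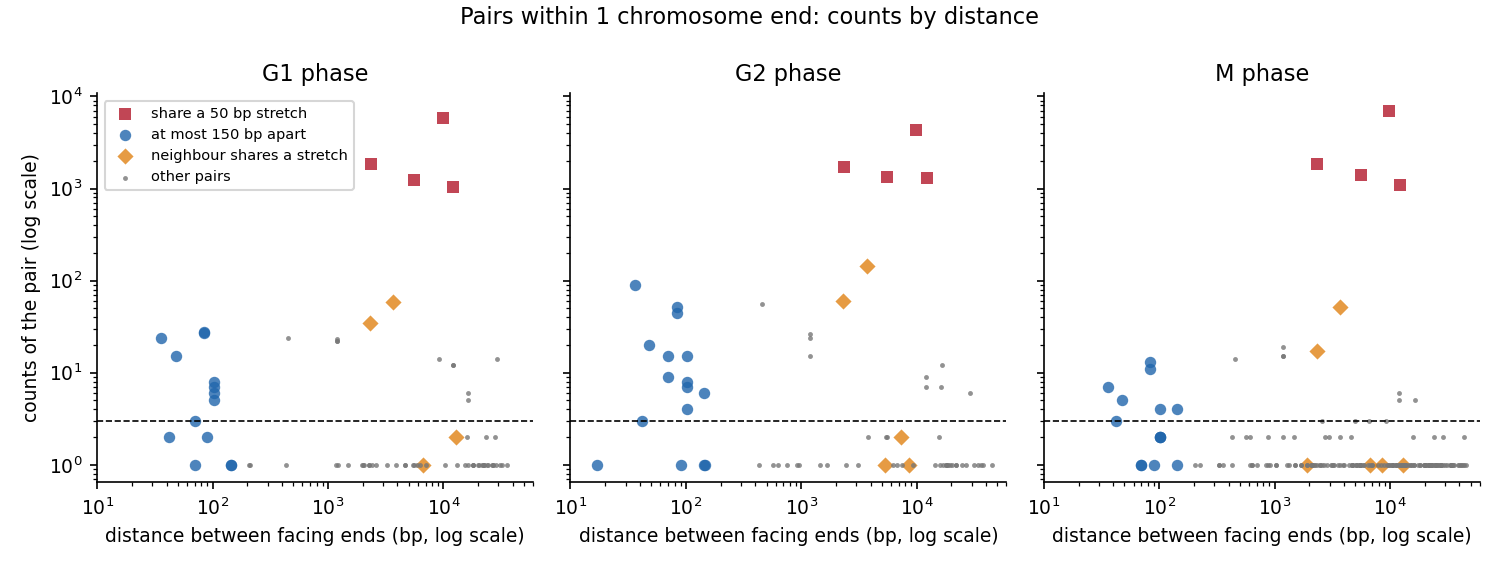
Counts of each pair within 1 chromosome end against the distance between the facing ends of its fragments, both on log scales, 1 panel per phase and 1 point per pair. The dashed line marks the cut-off of 3 counts. The 4 pairs that share a 50 bp stretch lie at 1038 counts or more in each phase, and the other pairs lie at or below 144.

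Without the pairs that share a stretch, 431 (G1), 686 (G2) and 387 (M) counts were left. The left end of chromosome I held 235, 478 and 197 of them, the right end of chromosome I 43, 56 and 72, the left end of chromosome II 92, 100 and 72, and its right end 61, 52 and 46. Of these smaller pairs, 16 stepped over 1 or 2 short fragments, with facing ends at most 150 bp apart. In G1, G2 and M phase these summed to 130, 276 and 57 counts, or 63.2, 126 and 26.9 per 1000000 network counts.

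The largest of them spanned the 36 bp fragment shown above, inside SPAC212.08c, and joined the fragments 11970 to 12687 and 12724 to 14585, which also holds the pseudogene SPAC212.07c. It had 24 (G1), 89 (G2) and 7 (M) counts. The pairs over both copies of the 84 bp fragment came next. On the left of chromosome I, the pair that joins SPAC212.03 (23105 to 25145) with the LTR fragment 25230 to 26587 had 27, 52 and 13 counts. On the left of chromosome II, the pair of SPBC1348.15 (1 to 1860) and the fragment 1945 to 3302 had 28, 44 and 11. SPAC212.03 and SPBC1348.15 code for uncharacterized proteins. Both copies were highest in G2 phase and lowest in M phase.

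The 102 bp fragment lies in ftm genes, which code for proteins with transmembrane helices. Pairs over it had 8, 8 and 2 counts at ftm1 on the left of chromosome I, and 5, 15 and 4 at ftm4 on the right of chromosome I. They had 7, 4 and 2 counts at ftm5 on the left of chromosome II, and 6, 7 and 2 at SPBPB2B2.19c on its right. Pairs over the 70 bp fragment had 1, 15 and 1 counts on the left of chromosome I and 3, 9 and 1 on its right. At these small numbers the order of the phases differed between copies, while M phase was lowest or tied for lowest in each of them. Over a 144 bp fragment with copies in both ends of chromosome I, the pairs had 1, 6 and 4 counts on the left, beside SPAC212.09c, and 1, 1 and 1 on the right, beside SPAC750.08c. Over the 12 pairs of this kind that were significant in a phase, 9 were highest in G2 phase and 9 were lowest in M phase.

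Other pairs over short fragments moved with these. Outside the ends, 269 pairs with facing ends at most 150 bp apart had 587, 875 and 462 counts per 1000000 in G1, G2 and M phase. Adjacent fragments inside the ends, which form no part of the network, had 2860, 3890 and 1620 per 1000000. The ratio of G2 to M phase was 4.67 for the pairs over short fragments inside the ends, 1.89 for those elsewhere and 2.39 for adjacent fragments inside the ends. The part of adjacent joining in these values was not tested.

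Around SPAC212.08c, 2 further pairs were significant in which 1 partner neighbours a copy of the other. The pair of SPAC212.08c (11970 to 12687) and SPAC212.06c (16375 to 19318) had 59 (G1), 144 (G2) and 52 (M) counts. The adjacent pair of SPAC212.12 and SPAC212.06c, in which SPAC212.12 carries the stretch it shares with SPAC212.08c, had 85, 148 and 38. The 36 bp fragment and SPAC212.12 had 35, 60 and 17 counts, and the adjacent pair of this fragment with 11970 to 12687 had 31, 57 and 21. The repeat-free fragment 12724 to 14585 and SPAC212.12, with 453 bp between them, had 24, 56 and 14 counts. All of these pairs, adjacent ones included, were highest in G2 phase.

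Apart from these, 3 ends carried 1 pair each over the same block of 1194 bp, made of fragments of 839 and 355 bp. On the right of chromosome I and the left of chromosome II, the block lies between a gene for a transporter and one annotated as a methyltransferase. On the right of chromosome II, the fragment across the block from the transporter gene has no named gene. On the right of chromosome I the pair of SPAC750.02c (5552503 to 5554881) and SPAC750.03c (5556076 to 5557585) had 22 (G1), 24 (G2) and 15 (M) counts. On the left of chromosome II the pair of SPBC1348.04 (11483 to 12990) and SPBC1348.05 (14185 to 17346) had 22, 15 and 15. On its right the pair of SPBPB2B2.16c (4495617 to 4498779) and the fragment 4499974 to 4501480 had 23, 26 and 19. The 3 copies differed by at most 1 count in G1 phase, by 11 in G2 phase and by 4 in M phase.

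These copies were also joined across ends, in 6 combinations. The 6 pairs across ends had medians of 19 (G1), 20.0 (G2) and 16.5 (M) counts and ranged from 11 to 28. The same-end pairs had medians of 22, 24 and 15 and ranged from 15 to 26. Pairs within and across ends overlapped in each phase.

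Around the 84 bp fragment, the combinations across ends had 34 and 37 counts in G1 phase, above the 27 and 28 within ends. They had 43 and 49 against 44 and 52 in G2 phase, and 8 and 14 against 11 and 13 in M phase, so that the groups overlapped there. Around the 70 bp fragment, the pairs across ends had 3 and 1 counts in G1 phase, as within ends, 5 and 3 in G2 phase, below the 15 and 9 within ends, and 1 and 0 in M phase. Across ends, the 12 combinations around the 102 bp fragment had medians of 7, 11.5 and 4 counts, and the 4 within ends 6.5, 7.5 and 2, with overlapping ranges.

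Over distances of 9242 to 28873 bp, 5 significant pairs joined members of 2 copied families, some of which were named above. One family holds the LTR fragments of SPAC212.04c, SPAC212.01c, SPAC750.06c, SPBC1348.01 and SPBCPT2R1.01c, the other the fragments of SPAC977.06, SPBC1348.07, SPBPB2B2.07c and SPBPB2B2.14c. On the left of chromosome I, SPAC977.06 (39085 to 40845) had 5 (G1), 12 (G2) and 5 (M) counts with the fragment of SPAC212.04c 16414 bp away. With the next fragment of SPAC212.04c (22671 to 22880) it had 6, 7 and 1, and with SPAC212.01c, 9242 bp away, 14, 1 and 3.

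The same families met in the ends of chromosome II. The pair of SPBC1348.01 (4463 to 7207) and SPBC1348.07 (19296 to 21057) had 12, 7 and 6 counts. On the right, the fragment of gal1 and SPBPB2B2.14c and that of SPBCPT2R1.01c (4505715 to 4508459) had 12, 9 and 5. The fragments of SPBPB2B2.07c and SPBCPT2R1.01c, 28873 bp apart, had 14, 6 and 2. Over the 5 pairs of 1 end of these families the medians were 12, 7 and 5 counts, and over the 15 combinations across ends 11, 7 and 4, with ranges that overlap in each phase.

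In M phase alone, 3 further pairs reached the cut-off, each with 3 counts. They joined SPAC212.08c with the fragment 19319 to 20352 (0, 0 and 3 counts in G1, G2 and M), SPBC1348.15 with SPBC1348.01 (1, 0 and 3) and the fragment 1945 to 3302 with ftm5 (0, 0 and 3). On the right of chromosome I, where only 3 pairs were significant, the next by counts joined the fragments 5569601 to 5569806 and 5571288 to 5571712, with 1, 0 and 2.

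**Figure D2:**
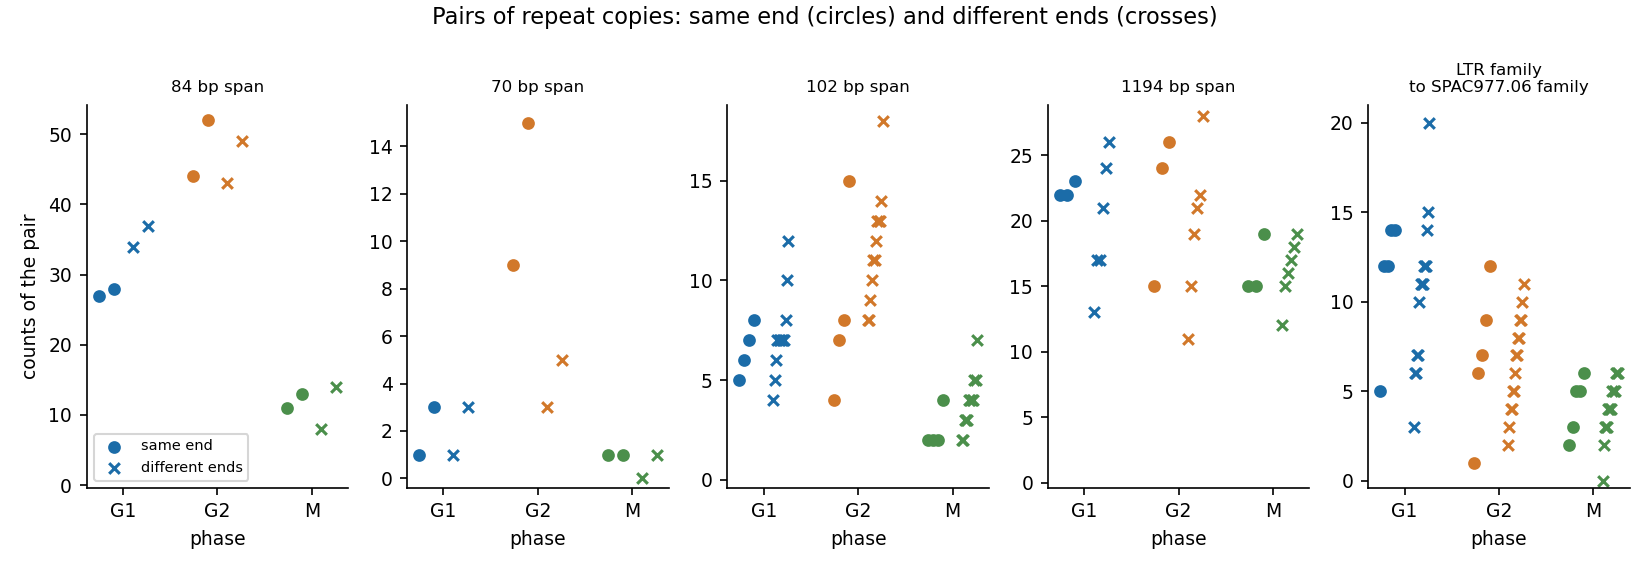
Counts of pairs of repeat copies by phase, for 5 families, with 1 point per pair; circles join fragments of the same end and crosses join fragments of different ends. The vertical scale differs between panels. Except for the 70 bp family in G2 phase, where the circles lie at 9 and 15 and the crosses at 3 and 5, and the 84 bp family in G1 phase, where the crosses are higher, circles and crosses overlap.

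Across the ends, 31 pairs were significant in at least 1 phase, and 29 of them had a counterpart at a different end, that is, a pair in which a fragment that shares a stretch replaces 1 or both partners. For all 29, at least 1 counterpart was listed. By this definition a pair gains counterparts once 1 partner has a copy in another end, and a counterpart can itself share a stretch. The pair of SPAC750.02c and SPAC750.03c, with 61 counts over the phases, had counterparts of up to 16300. These numbers therefore follow largely from the definition, and the share among pairs below the cut-off was not computed. The 2 without a counterpart were the significant pairs of 2 repeat-free fragments, both on the left of chromosome II where the deposited annotation gives a pseudogene, SPAC1348.13. They step over the 42 and 48 bp fragments shown above. The fragments 36990 to 37031 and 37080 to 38258 had 15 (G1), 20 (G2) and 5 (M) counts. The fragment of SPBC1348.12 (34939 to 36989), a DNA-binding transcription factor gene in RefSeq and a zinc finger pseudogene in the deposited notes, and the fragment 37032 to 37079 had 2, 3 and 3. The remaining 6 pairs of 2 repeat-free fragments had at most 2 counts in a phase.

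No pair of 2 repeat-free fragments further apart than 150 bp reached 3 counts in any phase. Within the ends 619 pairs of repeat-free fragments were possible, and 17 of these lie within 200 bp. The hexose transporter gene ght7 had 1 pair with 1 count over its 3 fragments. Contacts of this kind above the cut-off were thus not detected within the ends. Outside the ends on chromosomes I and II, some repeat-free pairs did reach it. At 20 to 50 kb these were 1 (G1), 4 (G2) and 2 (M) of 154286 possible pairs. Within the ends only 31 such pairs were possible at that distance. At shares this low, the pairs within the ends are too few to show whether they differ.

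**Figure D3:**
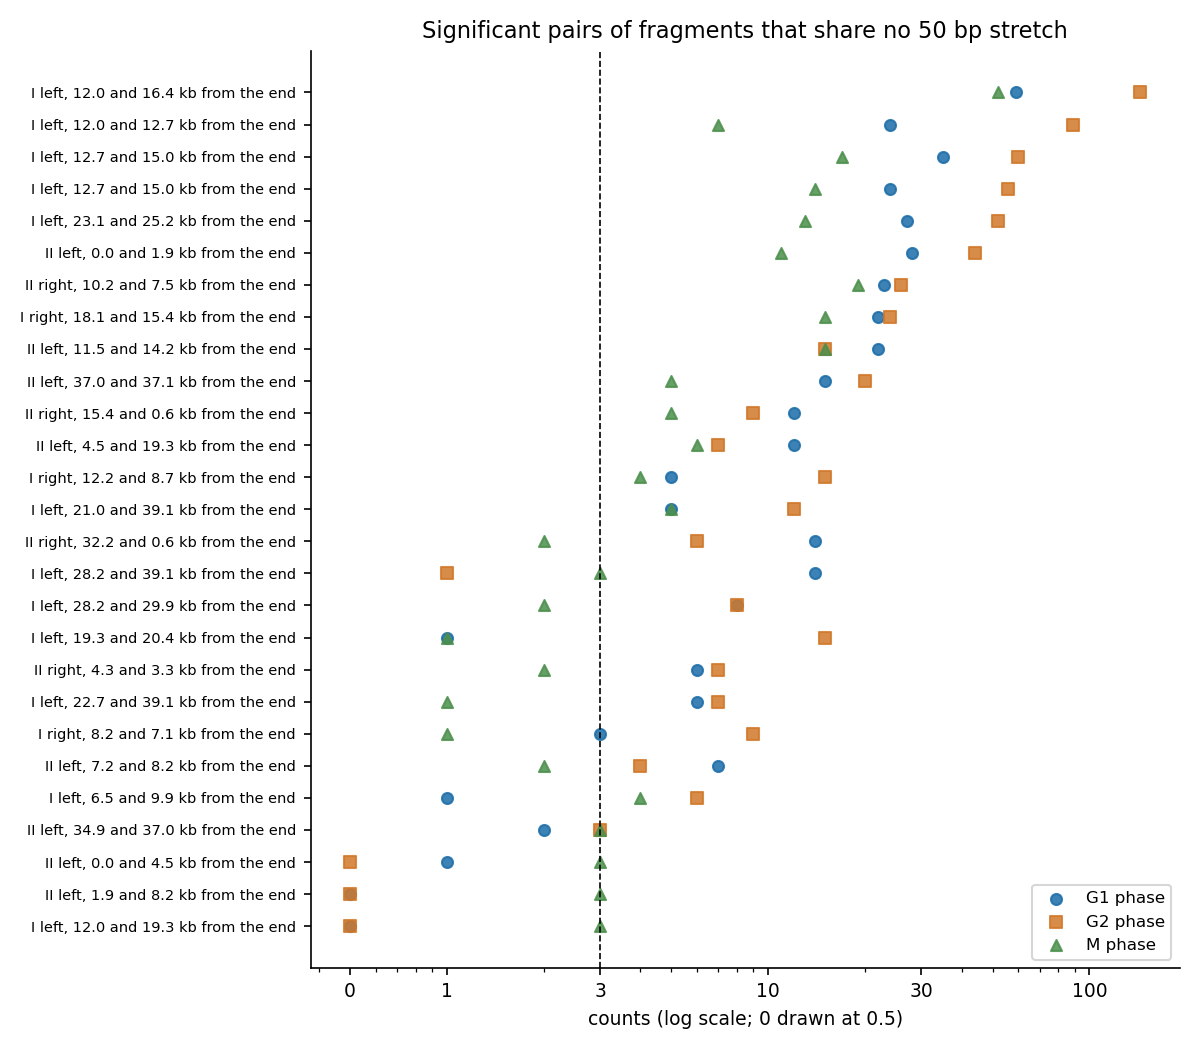
Counts of the 27 significant pairs that share no 50 bp stretch, on a log scale with 0 drawn at 0.5, 1 row per pair and 1 symbol per phase; the distances are those of the fragments' outer starts from the end of the tables. The dashed line marks 3 counts. In the 6 rows with the most counts, G2 phase is highest and M phase lowest.

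All 4 ends listed more pairs in M phase than in G1 or G2 phase. The left end of chromosome I had 41, 38 and 83 pairs in G1, G2 and M phase, and its right end had 16, 11 and 50. The left end of chromosome II had 11, 12 and 31 pairs and its right end 11, 9 and 23. M phase was higher in every end, by 2.02 to 4.55 times.

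These additional pairs were nearly all single counts. In M phase, 146 of the 187 pairs had 1 count, against 48 of 79 (G1) and 38 of 70 (G2). Of the 252 pairs, 137 were listed in M phase alone, with 150 counts in all and at most 3 in a pair. Among these 137, 91 joined fragments that both contain repeats, 45 had 1 repeat-free partner and 1 joined 2 repeat-free fragments. In contrast, 32 pairs were listed in G1 phase alone and 29 in G2 phase alone, while the 30 pairs listed in all 3 phases held 31165 counts.

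Pairs under 50 kb were also listed more often in M phase elsewhere. Of all other intrachromosomal pairs under 50 kb, 1187, 1196 and 1817 were listed in G1, G2 and M phase, a ratio of 1.53 and 1.52 for M phase to G1 and G2 phase. Within the ends the ratios were 2.37 and 2.67. Pairs of 1 count numbered 439, 391 and 1025 among these other pairs. Over the whole network M phase had fewer pairs, 59578 against 84482 in G1 and 71656 in G2 phase. Because replicates are pooled, it cannot be said whether the single counts of M phase occurred in both.

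**Figure D4:**
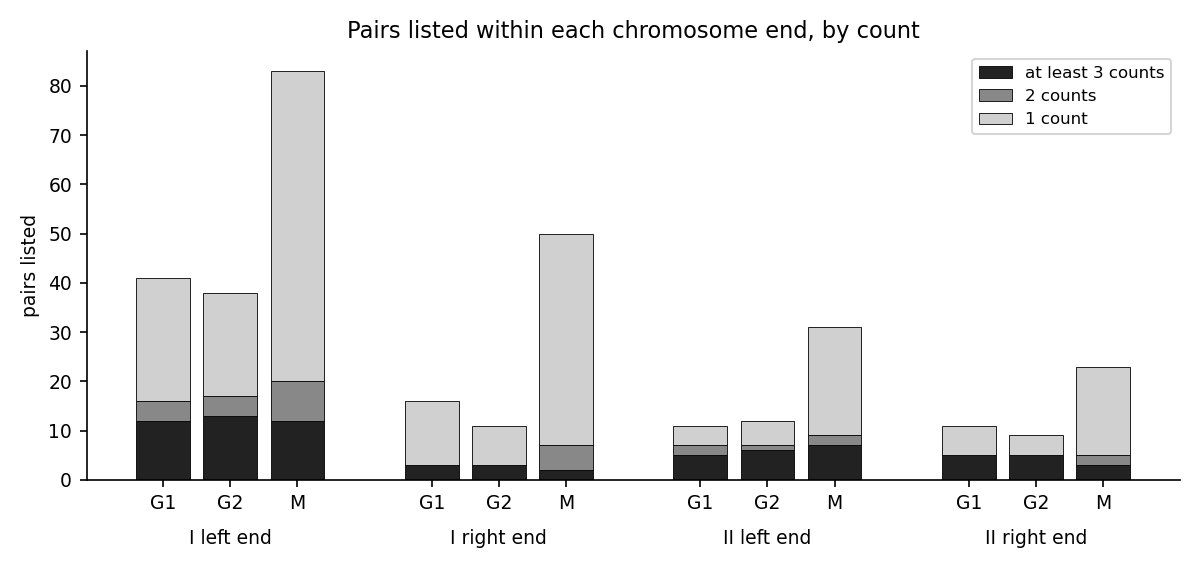
Number of pairs listed within each chromosome end in G1, G2 and M phase, with bars divided into pairs of at least 3 counts, 2 counts and 1 count. M phase has the highest bar in every end through pairs of 1 count, and the numbers of significant pairs lie between 2 and 13.

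At the cut-off, the phases were close. Within the ends, 25 (G1), 27 (G2) and 24 (M) pairs were significant, of which 12, 13 and 12 lay in the left end of chromosome I. The right end of chromosome I had 3, 3 and 2, the left end of chromosome II 5, 6 and 7, and its right end 5, 5 and 3. Of the 31 pairs significant in a phase, 18 were so in all 3 phases, 6 in G1 and G2 phase, 2 in G2 and M phase, 1 in G1 and M phase, 3 in M phase alone and 1 in G2 phase alone.

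Set against all significant intrachromosomal interactions, pairs within the ends made up 0.542% in G1 phase (25 of 4612, 95% Wilson interval 0.367 to 0.799%). In G2 phase the share was 0.594% (27 of 4549, 0.408 to 0.862%), and in M phase 0.664% (24 of 3616, 0.446 to 0.986%). No difference was detectable in two-sided Fisher's exact tests between G1 and G2 phase (p = 0.782), G2 and M phase (p = 0.778) or M and G1 phase (p = 0.475). The lowest p over the 15 tests, with each end taken alone as well, was 0.388, for the left end of chromosome II between M and G1 phase. All 15 had an adjusted p of 1.0 (Fisher's exact test with Benjamini-Hochberg adjustment). These tests compare pooled tables and take each pair as independent, though many pairs are copies of each other, so they hold no spread between replicates.

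By counts, pairs within the ends held 0.507% of the network in G1 phase (Wilson interval 0.497 to 0.517%), 0.426% in G2 phase (0.417 to 0.434%) and 0.55% in M phase (0.54 to 0.56%). The intervals do not overlap, but they cover at most counting error. PCR copies of 1 ligated molecule cannot be told from further molecules. Nor can a read pair entered at several copies of a repeat be told from several read pairs. The helicase pair holds 46.1% to 59.4% of these counts. The order of the phases turned with the choice of pairs: without pairs that share a stretch, directly or through a neighbouring fragment, the shares of the counts left were 0.25%, 0.4% and 0.365% in G1, G2 and M, and with 100 kb ends 0.981%, 0.96% and 0.762%. Among pairs of 2 repeat-free fragments they were 0.755%, 0.339% and 0.291%. These last shares rest on 20, 28 and 10 counts within the ends, of which 1 pair held 15, 20 and 5. The counts themselves were highest in G2 phase, so the order of these shares also depends on the totals they are set against.

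A pair was next called different between phases when its counts per 1000000 network counts differed at least 2-fold, with counts under 3 raised to 3 and at least 10 counts in 1 of the phases. There is no test behind these calls, as each phase is 1 pooled table. Between G2 and M phase, 10 of 17 pairs within the ends were at least 2-fold higher in G2 phase, against 26.7% of all network pairs, and 0 were higher in M phase, against 23.1%. The median log2 ratio of G2 to M phase was 1.42 within the ends and -0.02 over the network. These 10 pairs include those over the 36, 70, 84 (both copies) and 48 bp fragments and, at ftm4, over the 102 bp fragment. Others lie around SPAC212.08c, and copies are not independent. Pairs over short fragments outside the ends were also higher in G2 than in M phase, at a ratio of 1.89. The network is not matched for such pairs, and how far they set the difference was not tested. Between M and G1 phase, 9 of 18 pairs were higher in G1 phase, against 16.7%, and 0 in M phase, against 7.53%. Between G1 and G2 phase, 6 of 21 were higher in G2 phase, against 11.6%, and 2 in G1 phase, against 14.1%. A pair with at least 10 counts in only 1 of the phases could be called only towards that phase, in the ends as in the network. This held for the pairs over the 36 bp (89 counts in G2, 7 in M phase) and 48 bp fragments (20 and 5). It also held for SPAC212.01c with SPAC977.06 (14 in G1, 3 in M phase). The shares called therefore describe these pairs and support no difference between phases.

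The called pairs with the most counts came from the left end of chromosome I. The pair of SPAC212.08c and SPAC212.06c was 2.29 times higher in G2 than in G1 phase and 2.67 times higher than in M phase. The pair over the 36 bp fragment was 3.47 times higher in G2 than in G1 phase and 12.3 times higher than in M phase, from 89 counts to 7. The 36 bp fragment with SPAC212.12 was 3.41 times higher in G2 than in M phase, and the fragment 12724 to 14585 with SPAC212.12 was 3.86 times higher.

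The pair over the 84 bp fragment was 3.86 times higher in G2 than in M phase on the left of chromosome I, from 52 counts to 13, and also on the left of chromosome II, from 44 to 11. The pairs called higher in G1 than in G2 phase were those of SPAC212.01c with SPAC977.06 and of SPBPB2B2.07c with SPBCPT2R1.01c. None of the 4 pairs that share a stretch was called in any comparison. All called pairs had 144 counts or fewer in each phase.

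By distance, 16 of 25 significant pairs of G1 phase had facing ends under 5 kb apart (64.0%, Wilson interval 44.5 to 79.8%). G2 phase had 19 of 27 (70.4%, 51.5 to 84.1%) and M phase 16 of 24 (66.7%, 46.7 to 82%). Among all significant intrachromosomal interactions under 50 kb the shares were 32.2%, 33.5% and 32%. This second set includes the pairs of the ends, and unlike them it is not held to fragments of 1 stretch of 50 kb.

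The number of possible pairs takes this limit into account. Of 28 possible pairs with facing ends under 200 bp apart, 14, 16 and 14 were listed in G1, G2 and M phase. From 200 bp to 2 kb, 11, 12 and 34 of 210 were listed, which is 5.24%, 5.71% and 16.2%. From 20 to 50 kb it was 17, 11 and 43 of 1093, which is 1.56%, 1.01% and 3.93%. In all 3 phases the share was highest under 200 bp and lowest from 20 to 50 kb.

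Outside the ends on chromosomes I and II, the same shares were lower at every distance. From 200 bp to 2 kb, 0.53%, 0.483% and 0.919% of 10557 possible pairs were listed, and from 20 to 50 kb 0.118%, 0.0996% and 0.172% of 171761. In the ends, 90 of 158 fragments contain repeats. When both partners were repeat-free, 4, 6 and 4 of 619 possible pairs within the ends were listed in the 3 phases, which is 0.646%, 0.969% and 0.646%. Outside the ends 60, 138 and 90 of 258479 were, which is 0.0232%, 0.0534% and 0.0348%. The sets differ in their distances, since 154286 of the pairs outside and 31 of those within the ends lie 20 to 50 kb apart. Under 200 bp, 17.6%, 29.4% and 17.6% of 17 possible repeat-free pairs were listed within the ends, and 3.31%, 8.0% and 3.24% of 1388 outside them. The pairs are not independent of each other, and these differences were not tested. Within the ends, 3, 5 and 3 listed pairs lie behind these last shares.

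**Figure D5:**
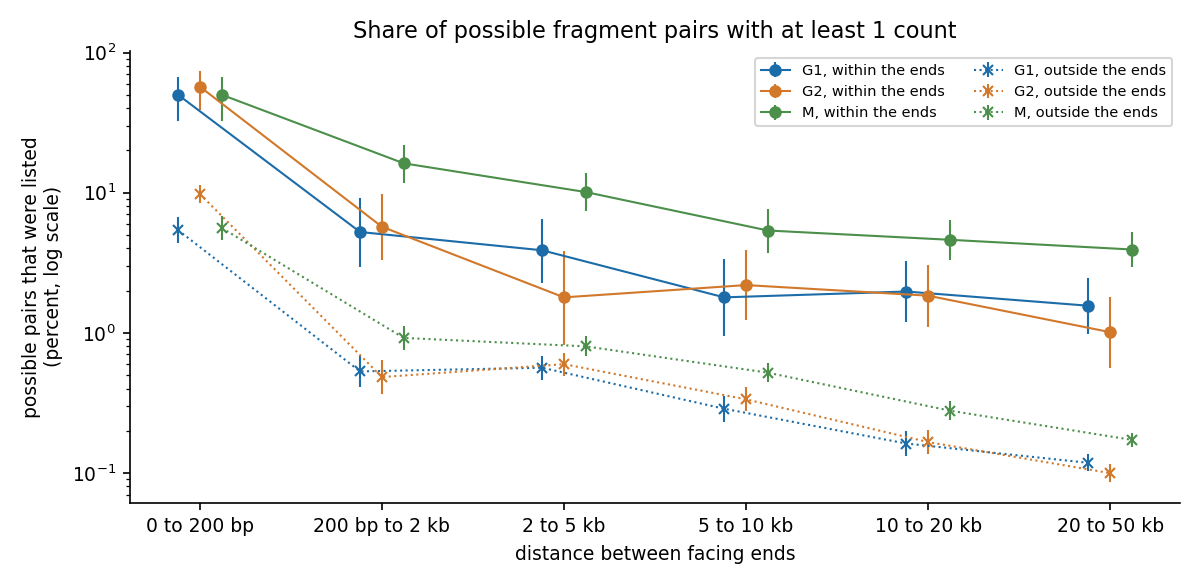
Percent of possible pairs of fragments with at least 1 count, on a log scale, by distance between facing ends, for pairs within the 4 ends (circles, solid lines) and elsewhere on chromosomes I and II (crosses, dotted lines). Bars are 95% Wilson intervals, which cover counting error only. At 20 to 50 kb, 1.01% to 3.93% of pairs were listed within the ends and 0.0996% to 0.172% outside them.

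Among windows of 50 kb cut from the rest of chromosomes I and II, few listed as many pairs. The left end of chromosome I had fewer pairs than 3 of 199 windows in each phase. The right end of chromosome II, with the fewest pairs in G2 and M phase, had fewer than 8, 9 and 5 windows in G1, G2 and M phase. The median window had 0 or 1 pair. The order depended on the measure. In G1, G2 and M phase, 4, 7 and 3 windows lay above the right end of chromosome I by pairs, and 14, 11 and 13 by counts. By significant pairs 10, 9 and 11 windows lay above it, and 5, 4 and 5 above the left end of chromosome I. The windows were not matched for repeats.

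By gene group, the fragments with helicase words in their annotation, those of tlh1 and SPAC212.06c, took part in 25 pairs with 56.9%, 47.8% and 60.0% of the counts within ends in G1, G2 and M phase. Without the pair that joins them to each other, 72, 152 and 68 counts were left. The 2 fragments found by the word DUF999 in their annotation had 20 pairs and 12.2%, 14.8% and 12.1% of the counts. Of these, 30, 30 and 19 counts lay outside the pairs with shared sequence. A group holds only fragments found by its words, so relatives annotated in other words are not in it. The 17 fragments with an LTR had 85 pairs, 14 of them significant in a phase, and 23.5%, 30.3% and 22.3% of the counts, of which 162, 194 and 123 counts lay outside the pairs with shared sequence. The groups overlap, since 1 fragment can hold several features.

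The 13 pseudogene fragments had 79 pairs with 69.7%, 64.5% and 72.5% of the counts, most of them through SPAC212.10 and SPAC212.06c in the helicase pair. The 6 fragments with a non-coding RNA had 27 pairs and 37, 26 and 25 counts. The 14 transporter or permease fragments had 20 pairs, 3 of them significant, with 67, 67 and 65 counts, and these 3 were the pairs over the 1194 bp block. The 6 dehydrogenase fragments had 11 pairs and 2, 2 and 8 counts. The 2 fragments with cell surface glycoprotein or serine/threonine-rich words had 0, 0 and 2 counts, and the 3 hexose transporter fragments 0, 0 and 1. None of the pairs of these last 3 groups was significant in a phase.

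Single fragments differed as widely. SPAC212.06c (17381 counts over the phases), tlh1 (17129) and SPAC212.08c (5811) led on the left of chromosome I. On its right, SPAC750.03c had 65, SPAC750.02c 63 and the ftm4 fragment 5560928 to 5564251 had 33. SPBC1348.15 (91), the fragment beside it (87) and SPBC1348.04 (53) led on the left of chromosome II, and the gal1 and SPBPB2B2.14c fragment (3444), SPBPB2B2.07c (3440) and SPBPB2B2.16c (71) on its right. In all, 32 of the 158 fragments had no pair within their end in any phase, 12 on the right of chromosome I, 10 on the left of chromosome II and 10 on its right. Every fragment of the left end of chromosome I had at least 1.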

How the data were processed

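GCC libraries (6, 2 biological replicates for each of 3 phases) were made with AseI and sequenced by the authors as 50 bp paired ends. The authors positioned read ends with the Topography suite, which uses SOAP, without mismatches or unassigned bases, and deposited raw counts of read pairs per pair of fragments, without normalization, pooling the replicates of each phase. The number of per-sample columns left unused was 0. A second table per phase that the labels name was not analysed here. Shares carry 95% Wilson intervals, which cover counting error only.

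Pairs listed in both directions were used once. Coordinates are 1-based and follow the tables. The labels name ASM294v2, but the chromosome lengths of the tables differ from the reference genome (ASM294v3). Fragments were matched to it by their AseI sites, which have equal coordinates on the left of chromosome I and on chromosome II in the stretch the tables cover. On the right of chromosome I the positions are shifted, and no coordinate was converted or sequence printed there. All 158 fragments of the ends were matched. A repeated stretch is a 50 bp sequence found elsewhere on either strand, and fragments shorter than 50 bp were judged by the 50 bp windows that hold them. Gene names are those of RefSeq at the fragment, and group words were searched in the deposited annotation and RefSeq products.

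The comparisons were Fisher's exact tests (scipy) with Benjamini-Hochberg adjustment (statsmodels) and the 2-fold rule. That rule was tried on simulated counts with planted changes larger than 2-fold and counting error alone. The simulation held no PCR copies, repeats or spread between replicates, so it does not show how often the rule errs on these data. Alternatives covered the size of an end, repeats, cut-offs, scaling and distances. Named were the 5 pairs with the most counts in each end, significant pairs of 2 repeat-free fragments, the 5 pairs past the 2-fold rule with the most counts, and 3 fragments per end. Other significant pairs and the copy families were named after their values were seen. Members and lists were chosen with earlier results of these data known.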

Additional observations from a re-analysis of the deposited data

How the results depend on the processing

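No paired analysis was possible because the tables pool the replicates of each phase, and no replicate could be left out. With 30 kb ends, the shares of network counts were 0.452% (G1), 0.364% (G2) and 0.495% (M), and 5, 8 and 6 pairs were called in place of 8, 10 and 9 (G1 and G2, G2 and M, M and G1 phase). With 100 kb ends, 93, 96 and 84 pairs were significant, the shares were 0.981%, 0.96% and 0.762%, and 27, 60 and 46 pairs were called. Without pairs that share a stretch, directly or through a neighbour, the shares were 0.25%, 0.4% and 0.365% of the counts left, and 7, 8 and 8 pairs were called. With 2 repeat-free fragments only, 1, 2 and 2 pairs were significant, and the shares were 0.755%, 0.339% and 0.291%, from 20, 28 and 10 counts. All 100.0% of these significant pairs lay under 5 kb, and 0, 1 and 1 pairs were called. G1 minus G2 phase turned to 1.53 percentage points (exact test, adjusted p = 1.0).

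Against intrachromosomal counts the shares were 0.749%, 0.638% and 0.813%, and without the 10 pairs with the most counts 0.743%, 0.596% and 0.811%. Weighted by counts, 20.8%, 24.8% and 17.9% lay under 5 kb, and 83.3% under 10 kb in M phase. At 2 reads, 41 pairs were significant in M phase. At 5 reads, G2 minus M phase was 0.162 and M minus G1 phase -0.119 points, and against intrachromosomal interactions under 50 kb 0.157 and -0.103, all reversed (adjusted p = 1.0, Fisher's exact test).

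With the cut-off at 1 read, chosen after seeing the data, 79, 70 and 187 pairs counted. G2 minus M phase was then -0.628 points and M minus G1 phase 0.635, and the lowest adjusted p of a single end was 4.73e-07 (Fisher's exact test). Against intrachromosomal pairs under 50 kb these were -3.8, 3.09 and 0.00572, and G1 minus G2 phase turned to 0.711. This cut-off was chosen once the excess of single counts in M phase was known, and each phase is 1 pooled table, so these p-values restate that excess, hold no replicate spread and support nothing. The causes of these changes were not tested. The remaining alternatives moved no count by over 1.5 times, and scaling to intrachromosomal counts kept the folds of all called pairs past 2.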
